A study of Rattus norvegicus with 6 samples.

Results

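The small leucine-rich proteoglycans (SLRPs) examined here were 8 genes, *Bgn*, *Dcn*, *Aspn*, *Lum*, *Fmod*, *Prelp*, *Omd* and *Ogn*, out of 17337 gene names in the polyA RNA-sequencing tables of rat cortical neural progenitors. The genes were taken by symbol, and the family was chosen from measured values of these same libraries, so the levels and the differences between replicates are given as a description with no test. All libraries came from cells of Sprague Dawley cortices at embryonic day 14 that were expanded with bFGF and EGF in a serum-free neural medium and harvested after passaging, with no treatment and no second condition. There were 2 biological replicates, A and B, each with 2 technical libraries, named A1, A2, B1 and B2 here. The technical libraries were averaged before the replicates were compared, so n = 2 throughout. The Start-seq libraries of these cells were not analysed here.

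SLRPs are secreted proteins with a small core of leucine-rich repeats, and most carry chondroitin, dermatan or keratan sulfate chains. They bind fibrillar collagens and set the spacing and diameter of collagen fibrils, and several also bind growth factors of the TGF-beta family. In the brain they are known mainly as products of fibroblasts of the meninges and around vessels, while neural progenitors are not known as a main source.

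Library B2 stood apart in depth. The coverage that corresponded to 1 FPKM (fragments scaled to transcript length and library depth), a measure of depth, was 24.3 and 22.7 in the A libraries, 24.4 in B1 and 6.83 in B2, so that B2 had 28.1% of the depth of the deepest library. Total read numbers were not used, and no counting interval can be given for an FPKM value. Of the markers of the labelled cell type, 9 of 9 neural progenitor genes in the tables averaged 1 FPKM or more. So did 10481 of the 17337 gene names and 14 of 14 meningeal and mesenchymal markers. This level therefore does not single out the labelled cell type. *Fabp7* encodes a fatty acid binding protein of radial glia. This neural progenitor gene had 16800, 18557, 6520 and 5486 FPKM in A1, A2, B1 and B2. Markers of meningeal and mesenchymal cells were present in every library and were higher in replicate B. Their summed level was 666 and 646 FPKM in A1 and A2 and 2387 and 2978 FPKM in B1 and B2.

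All 8 SLRP genes were above 0 in every library, and all 8 had a higher level in both libraries of replicate B than in both libraries of replicate A. A gene was counted as higher in one replicate when its mean was at least 1 FPKM, the replicate means of log2(FPKM + 1) differed by at least 1, and the libraries of A and B did not overlap. By this count 8 of 8 SLRP genes were higher in replicate B, beside 4.58% of the 10481 gene names with a mean of at least 1 FPKM, and 0 of 8 were higher in replicate A, beside 1.57%. In all shares given here, unless another level is stated, all gene names means these 10481. The counts of SLRP genes rest on the grouping that the sample labels give. The column names of a gene list published with these data allow another reading, in which A1 belongs with B1 and A2 with B2. With those groups 0 of 8 SLRP genes would be counted in either direction, beside 0.191% of all gene names. That share is 20 gene names, against 480 and 165 with the groups of the labels. Libraries with the same letter were thus the more alike, and which grouping holds was not tested. Both libraries of B exceeded both of A, at any size, in 28.1% of all gene names. The median difference, B minus A, was 1.90 on the log2(FPKM + 1) scale over the SLRP genes and -0.03 over all gene names counted, whose middle range ran from -0.26 to 0.21. This difference belonged to the contrast from which the family was chosen, so nothing is read from these counts. In bulk RNA, fewer cells of a type and less RNA per cell cannot be told apart.

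**Figure D1:**
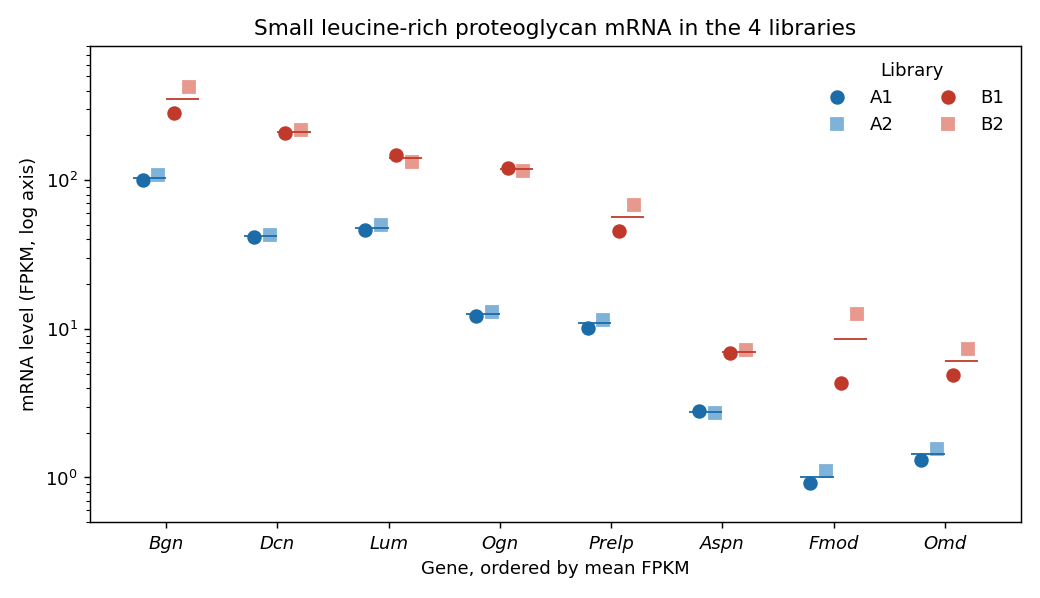
mRNA level of each SLRP gene in FPKM on a log axis, with circles for the first and squares for the second technical library, blue for replicate A and red for replicate B, and short lines at the replicate means. The A and B libraries of every gene are separate, and *Fmod* shows the widest gap between B1 and B2.

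Among the genes whose proteins carry chondroitin or dermatan sulfate, *Bgn* (biglycan, which binds collagen and signals through Toll-like receptors) had the highest level of the family in all 4 libraries. It is on chromosome X of rn6, minus strand, from 157319042 to 157331204. Its level was 99.9 and 108 FPKM in A1 and A2, and 282 and 422 FPKM in B1 and B2. The A libraries lay close together, the B libraries were further apart, and the lowest B value was 2.61 times the highest A value. The replicate means were 104 FPKM in A and 352 FPKM in B, a ratio of 3.39 and a mean of 228 ± 175 FPKM (SD, n = 2). By level in single libraries *Bgn* ranked 1056 and 998 in the A libraries, and 308 and 220 in B1 and B2, among the 17337 gene names.

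*Dcn* encodes decorin, which binds along collagen fibrils and holds TGF-beta, and is located on chromosome 7, plus strand, from 38742250 to 38782276. It had 41.8 and 42.8 FPKM in A1 and A2, and 207 and 217 FPKM in B1 and B2. Both pairs of technical libraries were within 1.05-fold, and the replicate means differed 5.01-fold (127 ± 120 FPKM, SD, n = 2). The difference was 2.30 on the log2(FPKM + 1) scale.

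*Aspn*, for asporin, a relative of decorin with a stretch of aspartate residues, had 2.80 and 2.72 FPKM in A1 and A2, and 6.85 and 7.22 FPKM in B1 and B2. This was the smallest difference of the family, with a replicate ratio of 2.55 and a difference of 1.10 on the log2(FPKM + 1) scale (mean 4.90 ± 3.02 FPKM, SD, n = 2). The groups did not overlap, and the lowest B value was 2.45 times the highest A value.

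Of the genes in the lumican and fibromodulin branch, whose proteins can carry keratan sulfate, *Lum* (lumican, known for the ordered collagen of the cornea) had the highest level. It is also on chromosome 7, plus strand, from 38820058 to 38826862, next to *Dcn*. Its level was 46.2 and 49.6 FPKM in A1 and A2, and 147 and 133 FPKM in B1 and B2. *Lum* was 1 of the 2 SLRP genes that had a lower value in B2 than in B1. The replicate ratio was 2.93 and the difference 1.53 on the log2(FPKM + 1) scale (mean 94.1 ± 65.3 FPKM, SD, n = 2).

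*Prelp*, which encodes a basic SLRP that anchors basement membranes to connective tissue, is on chromosome 13, minus strand, from 50751650 to 50761278. It had 10.2 and 11.6 FPKM in A1 and A2, and 45.7 and 67.7 FPKM in B1 and B2. All values in B were at least 3.95 times the highest in A. The replicate means differed 5.22-fold (33.8 ± 32.4 FPKM, SD, n = 2).

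*Fmod*, for fibromodulin, a collagen fibril regulator of tendon, is on chromosome 13, plus strand, from 50874886 to 50885503. It had 0.923 and 1.10 FPKM in A1 and A2, and 4.31 and 12.7 FPKM in B1 and B2. The B libraries thus differed 2.94-fold from each other, and *Fmod* was the 1 SLRP gene of 8 with B1 and B2 at least 2-fold apart, beside 5.41% of all gene names. No SLRP gene differed that much between A1 and A2, beside 0.286% of all gene names. The ratio of the replicate means of *Fmod* was 8.37 with both B libraries and 4.25 with B1 alone (mean 4.75 ± 5.28 FPKM, SD, n = 2). *Fmod* in A1 was the only SLRP value under 1 FPKM.

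*Omd* encodes osteomodulin, a keratan sulfate proteoglycan of bone. Its level was 1.31 and 1.55 FPKM in A1 and A2, and 4.87 and 7.33 FPKM in B1 and B2. The groups did not overlap, with a replicate ratio of 4.27 and a difference of 1.53 on the log2(FPKM + 1) scale (mean 3.76 ± 3.30 FPKM, SD, n = 2). In FPKM *Omd* differed by a larger factor than *Lum*, while the differences on the log2(FPKM + 1) scale, on which low genes appear to change less, were equal to 2 decimals.

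*Ogn*, which encodes osteoglycin (mimecan), a collagen fibril partner of several connective tissues, had the largest difference. It had 12.2 and 13.0 FPKM in A1 and A2, and 121 and 115 FPKM in B1 and B2. Technical libraries were within 1.07-fold in A and differed by a ratio of 0.951 in B, while the replicate means differed 9.40-fold and by 3.14 on the log2(FPKM + 1) scale (mean 65.4 ± 74.7 FPKM, SD, n = 2). Its share of the summed SLRP level was 5.66% and 5.64% in A1 and A2, and 14.8% and 11.7% in B1 and B2.

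The levels of *Ogn*, *Omd* and *Aspn* carry a limit. The tables list them on the minus strand of chromosome 17, from 14607442 to 15468449, from 14635589 to 15484324 and from 14656007 to 15519197, spans of 861, 849 and 863 kb that overlap each other. Their deposited coverage per FPKM was 0.5 of the library median in every library, while it was 1 for the other 5 SLRP genes. Of the rows above 0, 1.15%, 1.20%, 1.07% and 0.938% in A1, A2, B1 and B2 had such a ratio of 0.5. Whether such a row joins 2 placements of a gene in rn6 was not tested, and the level of 1 copy may then differ from the FPKM listed. At 0.5 of their FPKM, *Ogn* would still differ by 3.04 on the log2(FPKM + 1) scale, and *Aspn* by 0.93, under the threshold of 1. Ratios between libraries within each of these genes would not depend on this if such rows were handled alike in every library, which was not tested. *Nol8*, a row of the same kind in this stretch, was listed at 0 in B2 only. The levels of *Ogn*, *Omd* and *Aspn* against other genes do depend on it.

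**Figure D2:**
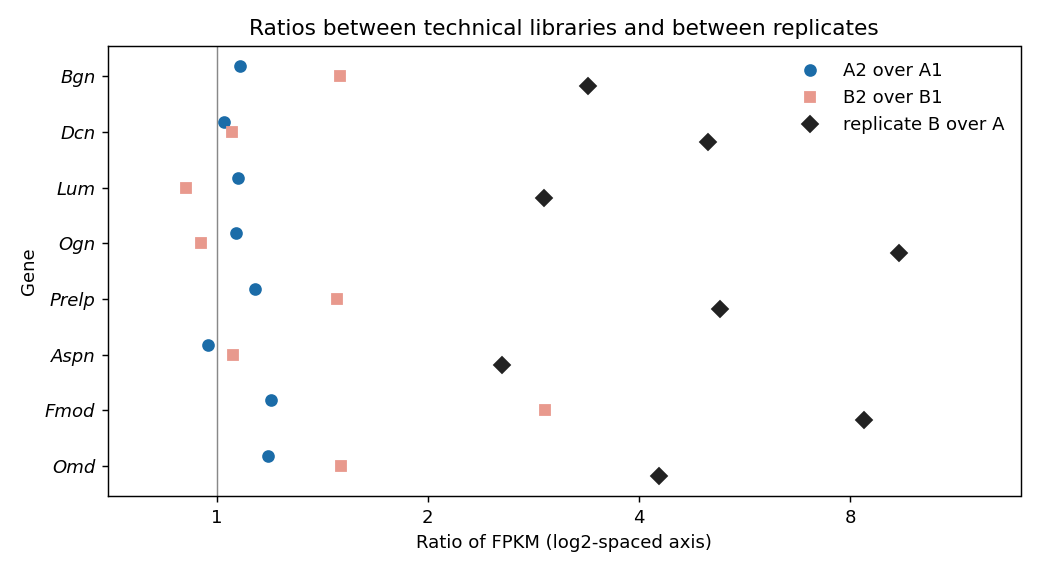
Ratios of FPKM on a log2-spaced axis for each SLRP gene: A2 over A1 (blue circles), B2 over B1 (pink squares) and the mean of B over the mean of A (black diamonds). A2 over A1 stays between 0.972 and 1.20, and every diamond lies at 2.55 or more.

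Between technical libraries, 7 of 8 SLRP genes were higher in A2 than in A1 and 6 of 8 were higher in B2 than in B1. The shares of all gene names in these directions were not computed, so nothing is read from these counts. The ratio of A2 to A1 ranged from 0.972 to 1.20. The ratio of B2 to B1 was 1.5 for *Bgn*, 1.48 for *Prelp*, 1.51 for *Omd* and 2.94 for *Fmod*, and it was 1.05 for *Dcn* and *Aspn*. The plot of ratios shows that for each gene the difference between replicates was larger than that between the technical libraries of either replicate. The family was chosen from these same values, and no share of all gene names was computed for this comparison, so it is a description only.

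The SLRP sum was 215 and 230.1 FPKM in A1 and A2, and 818 and 983 FPKM in B1 and B2. The replicate means of the sum were 223 and 901 FPKM (4.05-fold), and in TPM, the length-scaled share of all transcripts, the ratio was 3.91. *Bgn* made up 46.4%, 46.8%, 34.4% and 42.9% of the summed FPKM in A1, A2, B1 and B2, the largest share each time. The share of *Dcn* was 19.4% and 18.6% in A and 25.2% and 22.1% in B, and that of *Lum* was 21.5% and 21.6% in A and 18% and 13.6% in B. *Prelp* had 4.73% and 5.02% in A and 5.58% and 6.89% in B, *Fmod* 0.429% and 0.480% in A and 0.526% and 1.29% in B, and *Aspn* 1.30% and 1.18% in A and 0.837% and 0.735% in B. Thus *Dcn*, *Ogn*, *Prelp* and *Fmod* took a larger share of the sum in both B libraries, and *Bgn*, *Lum* and *Aspn* a smaller one.

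The order of the levels, which FPKM allows as a comparison per length, was the same in A1 and A2: *Bgn*, *Lum*, *Dcn*, *Ogn*, *Prelp*, *Aspn*, *Omd* and *Fmod*. In B1 *Dcn* stood above *Lum*, and in B2 *Fmod* also stood above *Omd* and *Aspn*, and *Omd* just above *Aspn*, with a ratio of *Aspn* to *Omd* of 0.985. The ratio of *Dcn* to *Lum* was 0.905 and 0.864 in A1 and A2, and 1.40 and 1.63 in B1 and B2. Over all libraries *Bgn* was above *Dcn* in all 4, while *Dcn* was above *Lum* in 2 of 4. *Lum* was above *Ogn* in all 4, but by 3.80 and 3.82 times in A and only 1.22 and 1.16 times in B. At 0.5 of their FPKM, *Ogn* would stand below *Prelp* in A1, A2 and B2, *Aspn* would stand below *Fmod* in both B libraries, and *Omd* below *Fmod* in all 4. The ratio of *Lum* to *Ogn* would then be 7.59 and 7.64 in A and 2.43 and 2.31 in B, and the *Ogn* share of the sum 2.94% and 2.93% in A and 8.06% and 6.28% in B. Within libraries, *Prelp* was above *Aspn* by 3.64, 4.25, 6.67 and 9.39 times in A1, A2, B1 and B2. With the values as deposited, the order of *Dcn* and *Lum*, of *Aspn* and *Fmod*, and of *Fmod* and *Omd* turned between libraries, so these neighbours are not separated. Between all neighbours the gap in means was smaller than the larger SD of the pair, an SD that holds the difference between A and B that both genes share.

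All SLRP genes here but *Bgn* have another SLRP gene as a neighbour. *Dcn* and *Lum* are 37.8 kb apart on chromosome 7 with *Kera* (keratocan, a corneal SLRP) and *Epyc* (epiphycan, a cartilage SLRP) next in line. *Kera* had 0.172 and 0.239 FPKM in A1 and A2, and 3.16 and 1.65 FPKM in B1 and B2, and was counted as higher in B. *Epyc* was listed at 0 in 3 libraries and at 0.0407 FPKM in B1, so this neighbour of *Lum* was not seen at a level that could be compared.

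On chromosome 13, *Optc* (opticin, an SLRP of the eye) lies 5.29 kb from *Prelp* on the same strand. It had 6.53 and 5.39 FPKM in A1 and A2, and 3.45 and 3.84 FPKM in B1 and B2, so both B libraries were below both A libraries, although the difference of -0.58 on the log2(FPKM + 1) scale did not reach the threshold. *Btg2*, an antiproliferative gene 27.7 kb from *Fmod*, was counted as higher in A, with 196 and 210.1 FPKM in A and 115 and 82.7 FPKM in B. Adjacent genes thus differed in direction on this chromosome.

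Near *Bgn* on chromosome X, *Haus7*, a centrosome gene, lies 22.5 kb away and had 92.7 and 46.6 FPKM in A and 139 and 103 FPKM in B. It was not counted, and *Trex2* and *Atp2b3* were under 1 FPKM in every library. On chromosome 17, *Iars* (a tRNA synthetase gene) overlaps the listed spans of *Ogn*, *Omd* and *Aspn* and had 7.68, 6.02, 6.86 and 6.89 FPKM in A1, A2, B1 and B2. *Ippk* had a difference of -0.15 on the log2(FPKM + 1) scale, and *Barx1* was below 1 FPKM throughout. *Nol8*, whose row spans 864 kb and has the same 0.5 of the median coverage per FPKM where it is above 0, was listed at 0 in B2 and at 9.09 to 10.5 FPKM in the other libraries. By the count used here *Nol8* was higher in A, a call that rests on the 0 of B2, and the 3 SLRP genes were the ones in this stretch counted as higher in B.

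Of the other genes of the family, *Tsku* (tsukushi, a secreted inhibitor of BMP signalling) was the most abundant, with 13.3, 13.9, 16.98 and 13.2 FPKM in A1, A2, B1 and B2. *Chad* and *Nyx* were below 1 FPKM in every library. Among the 3 listed relatives with a mean of at least 1 FPKM, 1 was higher in B, beside 4.58% of all gene names. This was *Kera*, whose mean of 1.305 FPKM reached that level only through replicate B. It averaged 0.205 FPKM in A and 2.40 FPKM in B, so nothing is read from this count. The median difference of the 3 relatives was 0.13 on the log2(FPKM + 1) scale.

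Promoter sequence was at hand for 5 of the 8 genes, *Lum*, *Fmod*, *Ogn*, *Omd* and *Aspn*, from RefSeq on GRCr8, a later build than the tables. *Bgn*, *Dcn* and *Prelp* were not matched. The 150 bases before the start of each are shown, 5′ to 3′ on the gene's strand, to show the bases at the starts of the genes described. Capitals mark matches, on either strand, to any of the TATA box letters (TATAAA), the CCAAT box, the GC box (GGGCGG), the AP-1 site (TGANTCA) and the E-box (CANNTG). The windows are chr7:34245556-34245705 (plus) for *Lum*, chr13:48045417-48045566 (plus) for *Fmod*, and on the minus strand chr17:15258996-15259145 for *Ogn*, chr17:15274871-15275020 for *Omd* and chr17:15310470-15310619 for *Aspn*.
Lum: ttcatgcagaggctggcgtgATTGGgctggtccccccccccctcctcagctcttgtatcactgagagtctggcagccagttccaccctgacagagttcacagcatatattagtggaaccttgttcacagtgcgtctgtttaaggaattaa
Fmod: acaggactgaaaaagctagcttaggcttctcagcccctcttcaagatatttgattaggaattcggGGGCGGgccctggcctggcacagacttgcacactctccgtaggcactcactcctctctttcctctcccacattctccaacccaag
Ogn: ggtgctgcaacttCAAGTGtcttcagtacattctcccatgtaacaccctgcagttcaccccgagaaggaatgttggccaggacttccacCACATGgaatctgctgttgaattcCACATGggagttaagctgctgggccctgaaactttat
Omd: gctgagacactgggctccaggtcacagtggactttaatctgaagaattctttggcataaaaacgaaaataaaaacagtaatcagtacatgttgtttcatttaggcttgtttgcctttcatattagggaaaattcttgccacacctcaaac
Aspn: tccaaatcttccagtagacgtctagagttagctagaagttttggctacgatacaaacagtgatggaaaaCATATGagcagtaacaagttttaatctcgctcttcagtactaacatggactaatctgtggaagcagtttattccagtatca

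Over the full RefSeq windows, from 250 bases before to 50 after the start, no motif was shared by all 5 promoters. CCAAT was found for *Lum* (on the minus strand, from -130 to -126) and for *Fmod* (from -247 to -243), beside 37.5% of all 33469 promoters. GGGCGG was found only for *Fmod*, from -85 to -80, beside 33.1% of all promoters. The E-box letters CANNTG, which read alike on both strands, were found for *Lum*, *Aspn* and, at 4 places, *Ogn*, beside 72.1% of all promoters. TATAAA stood in the *Ogn* promoter as a pair of overlapping matches on opposite strands, from -224 to -217, beside 14.2%, and TGANTCA was in none, beside 7.33%. *Omd* had no match to any of them, and its GC content of 37.7% was the lowest of the 5, against 39% for *Aspn*, 46% for *Ogn*, 50.7% for *Lum* and 52.7% for *Fmod*.

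SLRPs act on collagen fibrils, and most genes of fibrillar collagens were higher in the same replicate. The 3 genes *Col1a1*, *Col1a2* and *Col3a1*, which encode the chains of collagens I and III, summed to 518 and 497 FPKM in A1 and A2, and 2016 and 2423 FPKM in B1 and B2, a ratio of 4.37 between replicate means. Of 11 fibrillar collagen and fibril partner genes that averaged 1 FPKM or more, 9 were higher in B, beside 4.58% of all gene names, with a median difference of 1.81 on the log2(FPKM + 1) scale. *Col5a1*, which encodes a chain that starts fibrils, was among them with 12.9 and 10.4 FPKM in A and 43.7 and 73.2 FPKM in B. *Sparc*, which encodes a collagen-binding protein, was not counted, with a difference of 0.57. Nor was *Col11a2*, a cartilage collagen gene named after its values were seen, with 5.82 and 3.07 FPKM in A and 2.53 and 3.97 FPKM in B, and *Col2a1* was under 1 FPKM in every library. The collagen genes also stand in the list of meningeal and mesenchymal markers, so the lists are not separate evidence.

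**Figure D3:**
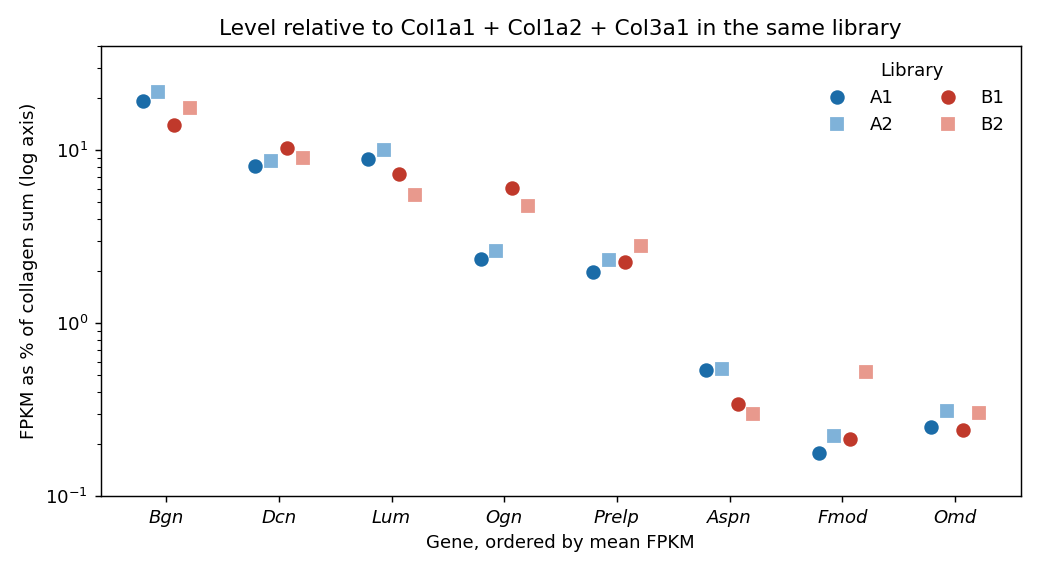
FPKM of each SLRP gene as a percentage of the summed FPKM of *Col1a1*, *Col1a2* and *Col3a1* in the same library, on a log axis, with the colours and shapes of the plot of levels. *Ogn* is higher in both B libraries, while *Prelp*, *Fmod* and *Omd* overlap between A and B.

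Relative to the collagen sum of the same library, the SLRP genes no longer moved in one direction. The collagen sum itself differed 4.37-fold between replicate means, so a gene with a smaller ratio of B to A falls against it. The share of all gene names that does so was not computed. *Ogn* went from 2.35% and 2.61% of the collagen sum in A1 and A2 to 6.01% and 4.75% in B1 and B2, and *Dcn* from 8.06% and 8.62% to 10.3% and 8.97%. Both were higher in both B libraries, although the gap for *Dcn* was small. *Bgn* was lower, at 19.3% and 21.7% in A and 14.0% and 17.4% in B. *Lum* was likewise lower, at 8.91% and 9.98% in A and 7.30% and 5.50% in B, as was *Aspn*, at 0.540% and 0.547% in A and 0.340% and 0.298% in B. For *Prelp*, *Fmod* and *Omd* the libraries of A and B overlapped, with *Prelp* at 1.97% and 2.33% in A and 2.27% and 2.80% in B. The high *Fmod* value of B2, 0.522% against 0.178% to 0.222% in the other libraries, stood alone.

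The enzymes that process and crosslink collagen were counted in part. Of 16 that averaged 1 FPKM or more, 8 were higher in B, beside 4.58% of all gene names, and 0 in A, and 6 were higher in B when B2 was left out. *Pcolce*, which encodes an enhancer of collagen propeptide cleavage, had 51.9 and 54.6 FPKM in A and 146 and 157 FPKM in B. *P4ha2*, for a collagen prolyl hydroxylase subunit, differed by 1.65 on the log2(FPKM + 1) scale, while *Bmp1*, for a propeptide protease that also matures some SLRPs, was not counted, with a difference of -0.52.

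Enzymes that build the sugar chains of SLRPs were read next. Of 18 linker, chondroitin and dermatan sulfate enzymes, 2 were higher in B, beside 4.58% of all gene names, and 10 had both B libraries above both A libraries at any size, beside 28.1%. One was *Dse*, for the epimerase that makes dermatan sulfate, with 3.82 and 4.34 FPKM in A and 12.2 and 14.2 FPKM in B. The other was *Chst11*, a chondroitin sulfotransferase gene, with 2.31 and 2.41 FPKM in A and 5.41 and 10.2 FPKM in B, which was no longer counted when B2 was left out, while *Chst3*, named after its values were seen, was then counted as higher in A. *B4galt7*, for an enzyme of the linker of both chains, had a difference of 0.14 on the log2(FPKM + 1) scale. Of 4 keratan sulfate enzymes, *B4galt1* and *B4galt4* had both B libraries above both A libraries at any size, beside 28.1% of all gene names. *B3gnt2* and *Chst1* had the reverse, beside 32%. By the count with the threshold, 0 were higher in B, beside 4.58%, and 1 was higher in A, beside 1.57%. This was *Chst1*, for a keratan sulfate sulfotransferase, with 20.2 and 19.2 FPKM in A and 11.3 and 6.25 FPKM in B, a call that was lost when B2 was left out.

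Among the proteins that SLRPs bind, 2 of 9 TGF-beta ligand, receptor and latency genes were higher in B, against the same 4.58% of all gene names. These were *Tgfbr2*, a signalling receptor gene, with 1.10 and 0.975 FPKM in A and 3.68 and 5.62 FPKM in B, and *Tgfbr3* (betaglycan), with 0.939 and 0.711 FPKM in A and 1.78 and 5.73 FPKM in B, which was no longer counted without B2. *Ltbp1*, for a latent TGF-beta binding protein, had 23.0 and 25.5 FPKM in A and 10.8 and 13.3 FPKM in B. It was not counted, and it was counted as higher in A when B2 was left out. *Tgfb1* was not counted, with a difference of 0.68 on the log2(FPKM + 1) scale. Of 8 other receptors and ligands, 4 were higher in B, namely *Thbs1*, *Bmp4*, *Bmp2* and *Wisp1*, against 4.58% of all gene names. *Egfr*, for a receptor that decorin binds, had 15.2 and 14.4 FPKM in A and 7.89 and 6.95 FPKM in B, and was not counted. Of 10 elastic fibre genes, 4 were higher in B against 4.58% of all gene names, among them *Eln* (elastin) and *Fbln1*, and *Fbn1* was lost from the count when B2 was left out.

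**Figure D4:**
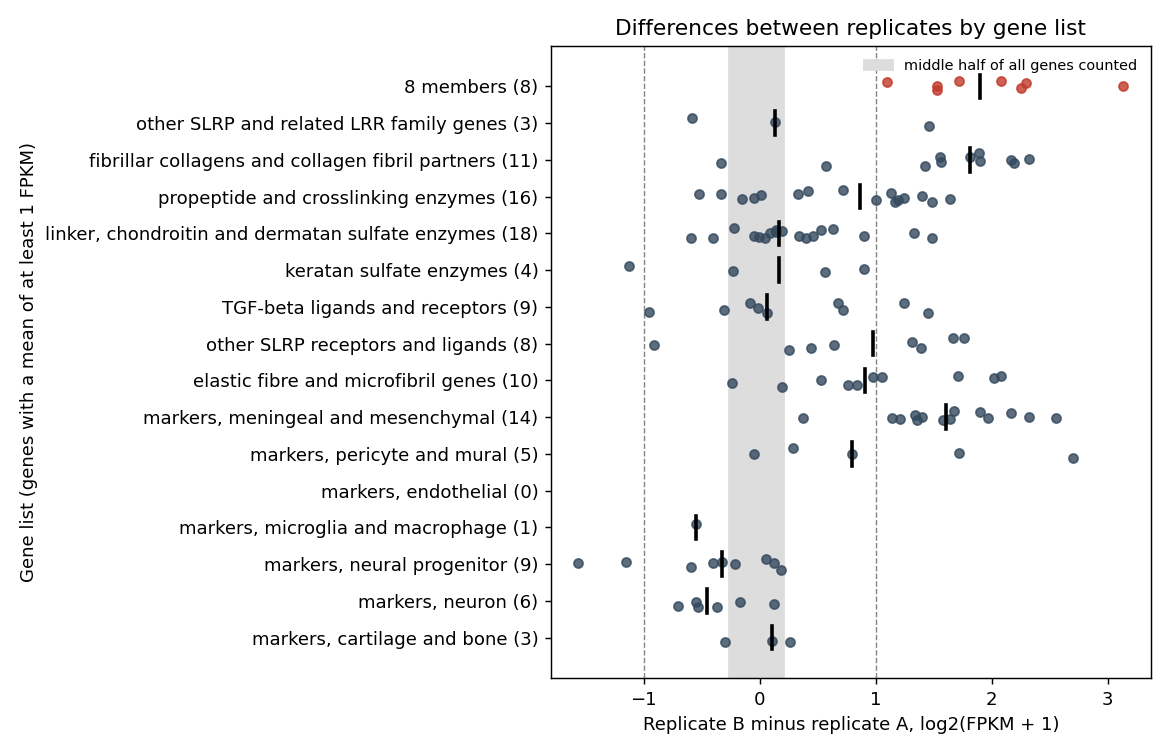
Difference between replicates, B minus A, on the log2(FPKM + 1) scale for the genes of each list with a mean of at least 1 FPKM, with the number of genes in brackets, black ticks at the medians, dashed lines at the threshold of 1 and a grey band for the middle range of all genes. The SLRP genes, the fibrillar collagens and the meningeal and mesenchymal markers have the medians furthest to the right.

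Markers of cell types were read beside the SLRP genes. Of 14 meningeal and mesenchymal markers, 13 were higher in B, beside 4.58% of all gene names, and 0 in A, beside 1.57%, with a median difference of 1.61 on the log2(FPKM + 1) scale, and 10 were higher without B2. None was below 1 FPKM in every library. *Pdgfra*, a receptor gene of fibroblasts and of oligodendrocyte precursors, had 9.50 and 9.09 FPKM in A and 59.5 and 59.4 FPKM in B, a pattern with close technical libraries like that of *Dcn* and *Ogn*. *Foxc1*, a transcription factor gene needed for the meninges, had 14.2 and 14.1 FPKM in A and 29.4 and 115 FPKM in B, with B1 and B2 apart like those of *Fmod*. The markers and the SLRP genes moved in the same replicates, and the part of such cells in the SLRP levels was not tested.

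Markers of the other cell types were also read. Of 5 pericyte and mural markers, 2 were higher in B, *Anpep* and *Acta2*, beside 4.58% of all gene names, and the summed level was 734 and 832 FPKM in A and 691 and 1506 FPKM in B. Most of that sum was *Tagln*, a smooth muscle actin-binding protein gene, and without it the others summed to 38.4 and 38.7 FPKM in A and to 98.2 and 115 FPKM in B. Over all 10 genes of this list, whatever their level, 5 had both B libraries above both A libraries and 2, *Kcnj8* and *Abcc9*, the reverse. Over all gene names, B was above A in this way in 28.1% at a mean of 1 FPKM or more and in 15.3% under it. *Myh11*, which overlapped, had 1.16 and 1.08 FPKM in A and 0.850 and 1.27 FPKM in B. The 8 endothelial markers summed to 0.941 and 0.918 FPKM in A and to 1.49 and 3.20 FPKM in B, and 7 of 8 had both B libraries above both A libraries, beside 15.3% of the 4550 gene names with a mean under 1 FPKM and a value above 0. None of them averaged 1 FPKM and none was at 0 in every library. The 8 microglia and macrophage markers summed to 4.16 to 6.15 FPKM and the 10 cartilage and bone markers to 10.5 to 12.1 FPKM. Only 1 and 3 of these averaged 1 FPKM or more, and 0 were counted in either direction, beside 4.58% and 1.57% of all gene names. The neural progenitor markers summed to 20963 and 23060 FPKM in A and 10068 and 10821 FPKM in B, a sum made up mostly of *Fabp7*. Without *Fabp7* they summed to 4164 and 4503 FPKM in A and to 3548 and 5335 FPKM in B, a rest that was mostly *Vim* and overlapped between A and B. In 5 of the 9 both A libraries were above both B libraries, beside 32% of all gene names, and in 0 of 9 was it the reverse, while *Nes*, *Vim* and *Slc1a3* overlapped with a higher mean in B. *Sox2*, a transcription factor gene of progenitors, had 558 and 592 FPKM in A and 406 and 356 FPKM in B. Of those 9, *Fabp7* and *Hes5*, a target of Notch signalling, were higher in A, beside 1.57% of all gene names. Of 6 neuron markers 0 were counted in either direction, beside 4.58% and 1.57%, a number too small to set against these shares. At any size, *Dcx*, *Map2*, *Rbfox3* and *Syt1* had both A libraries above both B libraries, beside 32% of all gene names. *Tubb3* and *Stmn2* overlapped. The median difference of the neuron markers was -0.45 on the log2(FPKM + 1) scale.

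The genes whose profile over the 4 libraries was most like that of *Bgn* were found by the distance between centred log2(FPKM + 1) values among 6636 genes that averaged 10 FPKM or more. In order these were *Rbms1*, *Adamts2*, *Eln*, *Tec*, *C1r*, *Anxa5*, *Ccdc80*, *Egflam*, *S1pr3* and *Rcn3*, at distances from 0.0667 to 0.165 on the log2 scale. The nearest, *Rbms1*, which encodes an RNA-binding protein, had 5.70 and 5.93 FPKM in A and 18.1 and 27.4 FPKM in B. *Adamts2*, for a procollagen protease, had 4.32 and 4.81 FPKM in A and 13.6 and 20.0 FPKM in B. The 4 libraries share their 2 cultures, so many genes that differ between A and B can come near any such profile.

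Each SLRP gene had a different nearest gene. For *Ogn* it was *Fmo1*, with 5.57 and 5.99 FPKM in A and 62.6 and 52.8 FPKM in B. For *Dcn* it was *Slc9a3r2*, for *Lum* *C1qtnf6*, for *Prelp* *Aard*, for *Fmod* *Anxa2*, for *Omd* *Lhfpl2* and for *Aspn* *Frmd6*. Within the family, the closest pair was *Bgn* and *Omd*, at 0.204, and the most distant was *Ogn* and *Aspn*, at 2.04, on either side of *Omd* on chromosome 17.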

How the data were processed

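PolyA RNA was sequenced from 2 biological replicates with 2 technical libraries each. Per the labels and the methods, the authors used STAR for alignment to rn6 and StringTie for transcript assembly. The deposited FPKM, TPM and coverage values per gene have the table layout of StringTie, while the methods name other R packages for FPKM; tool versions are not given in the sources used here. The authors' FPKM are scaled to transcript length and library depth, their TPM sum to 1000000 per library, and the deposited coverage (signal) is the mean read depth, not scaled to the library.

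Rows with the same gene name were added up, and technical libraries were averaged within a replicate. Differences are of mean log2(FPKM + 1), with a pseudocount of 1 FPKM. No test was made, since there were 2 replicates of 1 condition. Gene names are those of the tables. The genes and lists were chosen with earlier results of these data known. Named genes were the 8 SLRP genes, their listed relatives, genes within 100 kb, the 10 genes nearest to *Bgn*, and per list the 4 most abundant and up to 4 with the largest counted difference; of these a part is printed. Alternatives were TPM, scaling, other pseudocounts, filters and thresholds, each library left out and, chosen after seeing the data, *Ogn*, *Omd* and *Aspn* at 0.5 of their FPKM and marker sums without their most abundant gene. Promoters came from RefSeq (GRCr8). Python 3.11.15, pandas 2.3.3, numpy 2.4.6 and matplotlib 3.10.9 were used.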

Additional observations from a re-analysis of the deposited data

Results flagged for a closer look

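A value was listed when the highest or lowest of the 4 libraries lay far from the other 3 by Dixon's criterion, which chance meets in about 1 of 20 groups. Of 110 values examined 12 met it, 8 of them in B2, and 0 were SLRP genes. The libraries are technical pairs, so they are not 4 independent samples.

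Library B2 had a coverage per FPKM of 6.83, and the others had 22.7 to 24.4. *Foxc1* had 115 FPKM in B2, against 14.1 to 29.4. *Chsy1*, a chondroitin synthase gene, had 47 FPKM in B2, against 26.5 to 28.9. The endothelial markers *Pecam1*, *Cdh5* and *Kdr* had 0.451, 1.002 and 0.525 FPKM in B2, each above the other libraries. *Fbxw17*, within the listed spans of *Ogn*, *Omd* and *Aspn*, had 5.59 FPKM in B2, against 2.32 to 2.52, and *Nol8* in the same stretch was listed at 0.

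In B1 *Mfap4*, a microfibril gene, had 366 FPKM, against 496 to 511, and *Epyc* had 0.0407 FPKM, against 0 in the others. *Ltbp3*, a latent TGF-beta binding protein gene, had 105 FPKM in A1, against 90.0 to 91.9. *Chit1*, near *Fmod*, had 0.0362 FPKM in A2.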

How the results depend on the processing

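Over 20 results, 116 alternatives were computed, of which 108 were labelled as the same, 8 as moved and 0 as reversed. Counts and mean levels have no sign that could reverse. The A and B libraries of each SLRP gene did not overlap, so leaving out a library could not reverse a difference either. The absence of reversals is therefore not read as a check. The 8 SLRP genes had 59 alternative differences, all above 0, from 0.93 to 3.22 on the log2 scale of each alternative (the highest with a pseudocount of 0.1, others with TPM), with 58 at least 1. *Fmod* moved most between B libraries, from 2.08 to 1.40 without B2 and 2.76 without B1. With 1 replicate alone the mean level is that replicate's own, so that *Ogn* had 12.6 FPKM in A or 118 in B in place of 65.4, and *Fmod* 1.013 or 8.48 in place of 4.75. With a mean of at least 10 FPKM required, 5 SLRP genes were measured and 5 were higher in B, since *Fmod*, *Omd* and *Aspn* have lower means. With *Ogn*, *Omd* and *Aspn* at 0.5 of their FPKM, an alternative chosen after seeing the data, 7 were higher in B. With A1 and B1 set against A2 and B2, 0 SLRP genes were counted. Without each library in turn, the log2 ratio of the summed level ranged from 1.88 to 2.14. Over all genes, 480 were higher in B and 165 in A; these counts were 239 and 90 with means from 10 FPKM up, 978 and 754 at a log2 difference of 0.58, 615 and 279 with a pseudocount of 0.1, and 9 and 11 with A1 and B1 set against A2 and B2. No paired analysis was made, and no result comes from a test. With 2 cultures, the spread between cultures is known only coarsely, and B2 is the shallowest library.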
